A study of Homo sapiens with 36 samples.

Results

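The miR-320 family was followed through 18 conditions of WI-38 cells, which are normal human lung fibroblasts. Its members were taken as every mature miRNA of the deposited count table whose name holds miR-320a, miR-320b, miR-320c, miR-320d or miR-320e, and 5 of the 1508 listed names met this rule, each as a name of its own. A further 4 names with a lower-case "mir-320" stand for precursor hairpins, held 14.5 counts in all libraries together, and were not members. The small RNA of 36 libraries was sequenced, with 2 replicates per condition. Ctrl cells were young by their label, proliferating and untreated. PMD-Sen cells had been kept for 24 h in medium with 0.0095% SDS, which injures the plasma membrane as a detergent, and DDR-Sen cells for 24 h in 250 nM doxorubicin (DXR), which injures DNA. Both series were collected at the end of the treatment (D0) and then on D1, on D2, on D3, on D4, on D6, on D8 and on D16. RS cells had reached replicative senescence at a population doubling level of 54 to 56. The study used these conditions to ask how miRNA levels change as cells enter senescence by different routes. The labels call the replicates biological without saying whether they came from separate cultures, so p-values measure the spread between these libraries.

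Most miRNA precursors are cut out of a long primary transcript by the nuclear enzyme Drosha and then trimmed by Dicer. The precursor of miR-320 in mammals is known as an exception, since it is transcribed as a short capped hairpin that reaches Dicer without a cut by Drosha, and the 3′ arm is the one that is loaded. A mature miRNA recognises targets mainly through its seed, bases 2 to 8. The libraries measured mature miRNAs, so how the members were processed was not tested here.

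The members were nearly identical in sequence, and they are shown because reads that fit several of them were split between them. The mature sequences below are from RefSeq (GRCh38.p14), with the seed in capitals. The search left out the entries of a whole chromosome. Among the entries searched, 4 of the 5 members, all but miR-320a, had a match. miR-4429, listed in the same count table, is shown as the only other mature name among the entries searched with the seed of miR-320b.
miR-320b: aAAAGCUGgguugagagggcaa
miR-320c: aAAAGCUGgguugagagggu
miR-320d: aAAAGCUGgguugagagga
miR-320e: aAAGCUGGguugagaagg
miR-4429: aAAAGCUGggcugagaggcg

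Positions were counted from 1 at the 5′ end of miR-320b, and each substitution gives the base of miR-320b first. miR-320c shared its first 19 bases with miR-320b and carried C20U at its last base. miR-320d shared 18 bases and carried G19A. miR-320e began at base 2 of miR-320b, carried G17A, and therefore had another seed, AAGCUGG in place of AAAGCUG. miR-4429 carried U11C, G19C and C20G, and had 5 counts over all libraries, with 31 libraries at 0.

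The hairpins of these members lie at several loci (GRCh38.p14). MIR320B1 lies on chromosome 1 (chr1:116671746-116671817, plus strand) outside annotated genes, and MIR320B2 (chr1:224257040-224257110, minus strand) lies in an intron of NVL on the same strand. MIR320C1 (chr18:21683518-21683589) and MIR320C2 (chr18:24321675-24321746) lie on the plus strand, antisense to introns of ABHD3 and OSBPL1A. MIR320D1 (chr13:40727816-40727887) and MIR320D2 (chrX:140926160-140926231) lie on the minus strand outside annotated genes. MIR320E (chr19:46709282-46709354, minus strand) lies in an intron of PRKD2. The counts were given per mature name, so copies at separate loci could not be told apart.

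Library totals ranged from 81668 to 1933435 counts, with a median of 376989. Totals rose with day in PMD-Sen (Spearman's rho = 0.728 over 16 libraries) and had a rho of 0.101 in DDR-Sen. Replicates of every condition differed by more than counting error. The fibroblast miRNAs miR-143-3p, miR-145-5p, miR-199a-5p and miR-214-3p together held 6406 to 23740 CPM (counts scaled to a common library size) in every library. Summed markers of other cell types were far lower. Epithelial markers reached 163 CPM, haematopoietic markers 12.6 CPM, neuronal markers 17.6 CPM, the endothelial miR-126-3p 192 CPM and the hepatocyte miR-122-5p 264 CPM. Some of these moved along PMD-Sen, as given beside the slopes. The haematopoietic sum covers 3 of 5 listed names, since miR-142-3p and miR-144-3p had no entry in the count table. The fibroblast names miR-199a-3p and miR-199b-3p stood under a joined name and were left out of the fibroblast sum.

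miR-320a was by far the largest member. It ranked number 20 among all listed miRNAs by mean CPM, held 0.634% to 3.8% of a library, and made up 98% to 99.2% of the counts of the family. Its count was 1734 to 12260 per library. miR-320b had 25.5 to 107 counts and miR-320c 6.17 to 31.5 counts per library. Counts of miR-320a were not whole (off a whole number by more than 1e-06) in 33 libraries, those of miR-320b in 31 and those of miR-320c in 32, as happens where a read fits several names. The smallest members gave hardly any signal. miR-320d had 0 to 14.2 counts, with 22 libraries at or under 3 counts. miR-320e had 0 to 7 counts, with 20 libraries at 0 and 32 at or under 3 counts. A count of 0 allows up to 3 counts, which is 36.7 CPM in the library with the smallest total and 1.55 CPM in the largest one, counting error only. The filter for low counts kept 360 miRNAs, among them 3 of the 5 members, miR-320a, miR-320b and miR-320c, and tests cover only these.

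Levels are given below as CPM scaled by the trimmed mean of M-values (TMM) of the library, a relative measure in which fewer molecules of a miRNA and more of the others cannot be told apart. The libraries also do not separate less miRNA per cell from fewer cells that carry it. In Ctrl, miR-320a stood at 14540 and 18100 CPM (replicates 1 and 2). In PMD-Sen it stood at 27290 and 19330 CPM on D0 and at 16630 and 36010 CPM on D1. It stood at 11710 and 25090 CPM on D2. The replicates of D1 and D2 thus lay more than 2-fold apart, and those of D2 lay on either side of both Ctrl libraries. On later days miR-320a was lower in both replicates, with 9621 and 14100 CPM on D3, 10290 and 14190 on D4, 7517 and 10180 on D6, 7689 and 8409 on D8, and 6672 and 8196 on D16. From D3 on, each PMD-Sen library was below both Ctrl libraries.

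In DDR-Sen miR-320a had a mean of 15210 CPM on D0, 12340 on D1, 13700 on D2 and 15640 on D3. It was highest on D4, at 23600 and 19860 CPM, above both Ctrl libraries. It was back at a mean of 15650 CPM on D6 and 15240 on D8, and reached 11180 and 8696 CPM on D16, below both Ctrl libraries. RS libraries were split, with 22700 and 8119 CPM, and lay on either side of Ctrl.

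Ordered by mean, miR-320a was highest in PMD-Sen D1, D0, DDR-Sen D4 and PMD-Sen D2, and lowest in DDR-Sen D16, PMD-Sen D6, D8 and D16. The highest mean was 3.54 times the lowest. Replicates of neighbouring conditions in this order overlapped in all 17 neighbour pairs, so the order of neighbours is not resolved. miR-320b spanned 6.16-fold, from PMD-Sen D0 (429 and 284 CPM) to PMD-Sen D16 (57.96 and 57.79 CPM), and only its last 2 conditions, PMD-Sen D8 and D16, were apart. miR-320c spanned 5.66-fold, from PMD-Sen D1 (mean 95.9 CPM) to PMD-Sen D6 (mean 16.9 CPM), and no neighbours were apart.

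**Figure D1:**
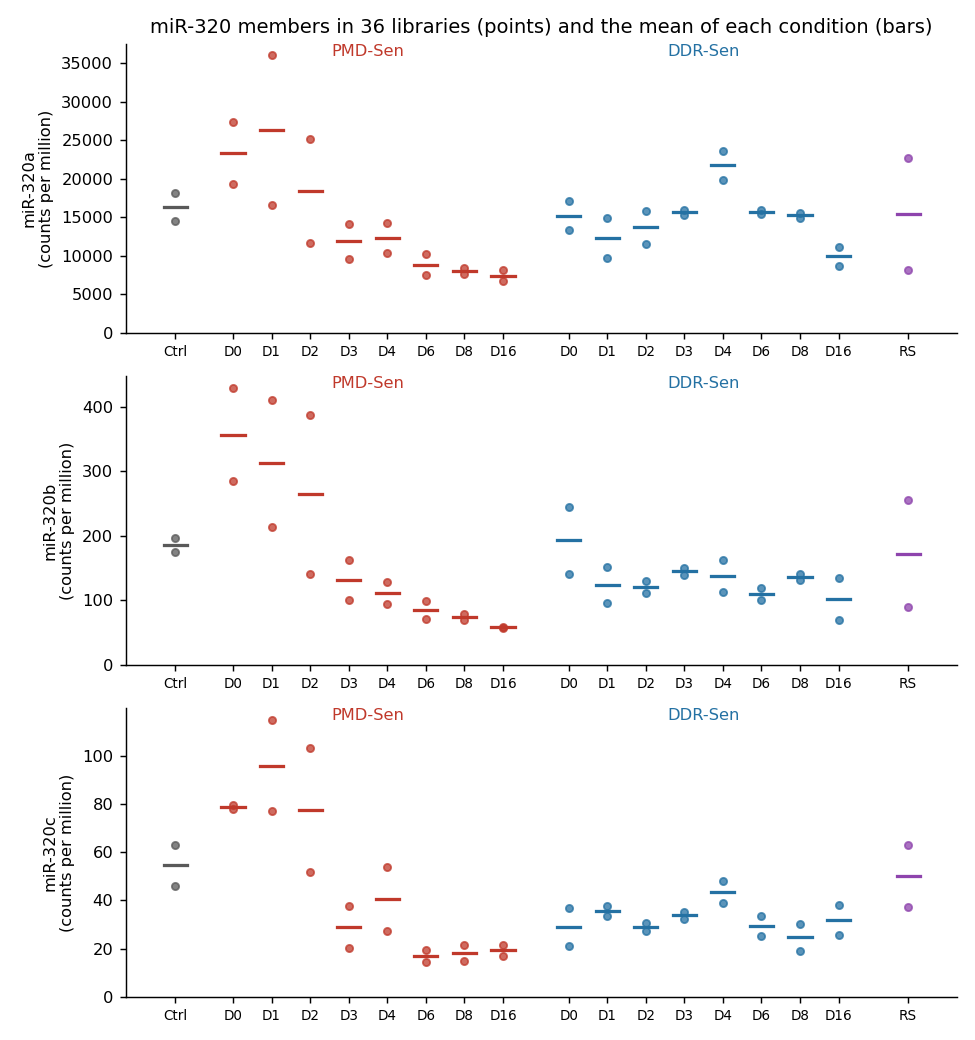
CPM of miR-320a (top), miR-320b (middle) and miR-320c (bottom) on the vertical axes, in each of the 36 libraries (points) and as the mean of the 2 replicates (bars), over Ctrl, the days of PMD-Sen and DDR-Sen, and RS. All 3 members start high in PMD-Sen and end low, miR-320b in DDR-Sen goes from a mean of 193 CPM on D0 to 102 on D16, and both RS libraries of miR-320a lie far apart.

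Each condition was compared with Ctrl, which serves as the same 2 control libraries in all 17 comparisons. The quasi-likelihood test of edgeR was used, with p-values adjusted by Benjamini-Hochberg across the 360 tested miRNAs, and a call means an adjusted p below 0.05. Of 51 tests of a member, 5 were called, all lower than Ctrl and all in PMD-Sen, and 11 had an unadjusted p below 0.05. A DESeq2 Wald test called 7, all lower. A fit of only the 4 libraries of each comparison called 12, of which 11 were lower and 1 was higher, and 4 of these 12 were in DDR-Sen. Shares of all tested miRNAs by unadjusted p, by DESeq2 or in these smaller fits are not given here. Member counts under these rules therefore have no background beside them.

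At PMD-Sen D16 all 3 tested members were lower than Ctrl. miR-320a fell from a mean of 16320 to 7434 CPM, a log2 difference of -1.14 (SE 0.359, adjusted p = 0.0287, edgeR's quasi-likelihood test). miR-320b was 196 and 175 CPM in Ctrl and 57.96 and 57.79 CPM on D16, a log2 difference of -1.68 (SE 0.464, adjusted p = 0.0133, edgeR). miR-320c was 45.8 and 63.2 CPM in Ctrl and 16.98 and 21.5 CPM on D16, a log2 difference of -1.56 (SE 0.487, adjusted p = 0.0275, edgeR). Replicates of the 2 conditions did not overlap for any of the 3. Among all tested miRNAs, 7.78% were called lower at PMD-Sen D16, and 46 of 360 had a log2 difference below that of miR-320a, 21 below that of miR-320c and 16 below that of miR-320b. The median log2 difference was -1.56 over the 3 members and 0.046 over all 360. Each of these 3 calls was lost when any 1 of the 4 libraries compared was left out (adjusted p 0.0596 to 0.222, edgeR), while the log2 differences stayed between -1.78 and -0.97. Without the filter for low counts that of miR-320c was lost too (-1.48, adjusted p = 0.214, edgeR).

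miR-320c was called earlier as well. It fell by 1.70 on the log2 scale on PMD-Sen D6 (SE 0.528, adjusted p = 0.0452, edgeR) and by 1.62 on D8 (SE 0.515, adjusted p = 0.0395, edgeR), against 3.33% and 4.72% of all tested miRNAs called lower on these days. It rests on the fewest counts of the 3. Both calls were lost when 1 of their libraries was left out, whichever it was (adjusted p 0.0688 to 0.28, edgeR), and both were lost without the filter for low counts (0.336 and 0.31). The D6 call was also lost with total counts in place of TMM (0.0607). On the same days miR-320a had log2 differences of -0.88 (SE 0.357) and -1.02 (SE 0.358), and miR-320b -1.13 (SE 0.469) and -1.34 (SE 0.471), none of them called by edgeR. On D8 the DESeq2 Wald test called miR-320a and miR-320b (adjusted p = 0.0465 and 0.0398), and without the filter for low counts edgeR called miR-320a on D6 (adjusted p = 0.00835) and D8 (adjusted p = 0.001).

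On D0 and D1 of PMD-Sen all 3 members had means above Ctrl, with log2 differences of 0.51 to 0.97 on D0 and 0.69 to 0.74 on D1, and none was called by edgeR. For miR-320a the D0 value was 0.24 without PMD-Sen D0 replicate 1, and the D1 value was 0.027 without PMD-Sen D1 replicate 2 and 1.14 without PMD-Sen D1 replicate 1. miR-320b on D0 came nearest, at 0.97 (95% interval 0.01 to 1.93, adjusted p = 0.415, edgeR). In DDR-Sen none of 24 member tests was called against Ctrl by edgeR or by a DESeq2 Wald test, and 1 had an unadjusted p below 0.05, miR-320c on D8 (log2 difference -1.17, SE 0.503). On DDR-Sen D16 the log2 differences were -0.72 for miR-320a (SE 0.356, adjusted p = 0.151, edgeR), -0.88 for miR-320b and -0.82 for miR-320c, with replicates below both Ctrl libraries for all 3. Without the filter for low counts miR-320a was called there (-0.67, adjusted p = 0.0288, edgeR). With only the 4 libraries of the comparison edgeR called miR-320a (-0.65) and miR-320b (-0.83) lower on DDR-Sen D16, miR-320b lower on D6 (-0.81) and miR-320a higher on D4 (0.40). On DDR-Sen D16 23.1% of all tested miRNAs were called in either direction, so that the comparison had many calls elsewhere. In RS, where 22.5% were called, the log2 differences were -0.084, -0.13 and -0.19 with intervals that reached from -1.14 to 0.78. The other 12 conditions without a member call had fewer calls among all tested miRNAs. These were 0.278% on D0, 2.22% on D1, 2.5% on D2, 0.278% on D3 and 3.89% on D4 of PMD-Sen. In DDR-Sen they were 0% on D0, 0.278% on D1, 0.278% on D2, 4.44% on D3, 6.67% on D4, 10.6% on D6 and 11.4% on D8.

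The RS result rests on libraries that disagreed. Without RS replicate 1 the log2 difference of miR-320a from Ctrl was -1.01 (adjusted p = 0.0494, edgeR), and without RS replicate 2 it was 0.34 (adjusted p = 0.607). The total of RS replicate 1 was 413994 and that of replicate 2 was 649167 counts.

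**Figure D2:**
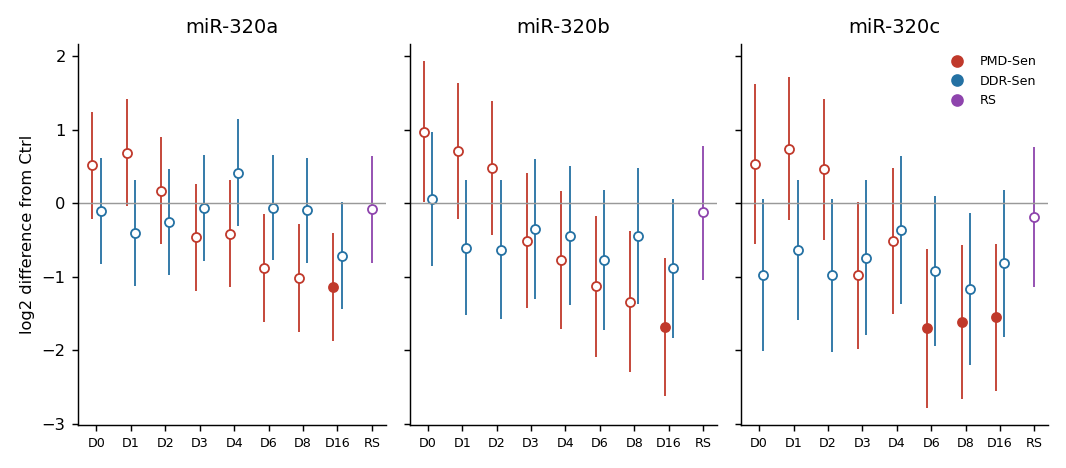
Log2 difference from Ctrl (vertical axis) of miR-320a, miR-320b and miR-320c on each day of PMD-Sen (red) and DDR-Sen (blue) and in RS (purple), with 95% intervals from edgeR as lines and filled points for an adjusted p below 0.05. The 5 filled points are all in PMD-Sen, on D6, D8 and D16 for miR-320c and on D16 for miR-320a and miR-320b.

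Within each series D16 was compared with D0, without Ctrl. In PMD-Sen all 3 members fell. miR-320a went from 27290 and 19330 to 6672 and 8196 CPM, a log2 difference of -1.65 (SE 0.364, adjusted p = 0.00263, edgeR). miR-320b went from 429 and 284 to 57.96 and 57.79 CPM, a log2 difference of -2.65 (SE 0.485, adjusted p = 0.000559, edgeR). miR-320c went from 79.7 and 78.0 to 16.98 and 21.5 CPM, a log2 difference of -2.08 (SE 0.547, adjusted p = 0.00856, edgeR). The share of all tested miRNAs called lower was 8.33%. Of the 360, 7 had a lower difference than miR-320b, 14 than miR-320c and 29 than miR-320a. The call of miR-320c was lost without PMD-Sen D0 replicate 1 (-2.04, adjusted p = 0.0804, edgeR) or without PMD-Sen D16 replicate 1 (-1.86, adjusted p = 0.0842), and without the filter for low counts (-1.88, adjusted p = 0.0988). The D0 libraries had the smallest totals of all, 104439 and 81668 counts, and held 8.67 and 7 counts of miR-320c.

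In DDR-Sen D16 against D0 none of the 3 was called by edgeR or by a DESeq2 Wald test, where 16.1% of all tested miRNAs were, and 1 had an unadjusted p below 0.05. The log2 differences were -0.61 for miR-320a (95% interval -1.34 to 0.11), -0.93 for miR-320b (-1.86 to -0.01) and 0.16 for miR-320c (-0.88 to 1.20).

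PMD-Sen was compared with DDR-Sen on the same day to ask whether the series differed. None of 24 member tests was called by edgeR, 9 had an unadjusted p below 0.05, and a DESeq2 Wald test called 1. Shares of all tested miRNAs by unadjusted p or by DESeq2 are not given here. By the adjusted p of edgeR, the shares of all tested miRNAs called in either direction were 1.67% on D0, 1.94% on D1, 4.17% on D2, 0.833% on D3, 3.33% on D4, 0.278% on D6, 0% on D8 and 0.556% on D16. The means still had one pattern in all 3 members, with PMD-Sen above DDR-Sen on D0, D1 and D2 and below it from D3 to D16, except that with total counts in place of TMM miR-320b on D3 and miR-320c on D4 were above. The largest differences of miR-320a were 1.09 on D1 (SE 0.358, adjusted p = 0.0782, edgeR) and -0.92 on D8 (SE 0.357, adjusted p = 0.231, edgeR). The D1 and D2 values depended on the replicates that lay far apart. Without PMD-Sen D1 replicate 1 miR-320a was called on D1 (1.55, adjusted p = 0.0175, edgeR), while without PMD-Sen D1 replicate 2 its difference was 0.43 (adjusted p = 0.847). Without PMD-Sen D2 replicate 2 its D2 difference of 0.42 became -0.23. Over D1 to D16 together the series did not differ by a call for any of the 3 (-0.22 for miR-320a with a 95% interval of -0.55 to 0.10, 0.056 for miR-320b and 0.18 for miR-320c), where 23.4% of 346 tested miRNAs were called. By a DESeq2 Wald test 0 of the 3 were called, and 0 had an unadjusted p below 0.05 with edgeR. Without the filter for low counts miR-320a was called (-0.27, adjusted p = 0.0134, edgeR).

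The fall with day was then fitted as a slope on log2(day + 1), in a model of the 32 libraries of both series that kept 354 miRNAs. In PMD-Sen the slope of miR-320a was -0.51 (SE 0.0737, adjusted p = 1.21e-06, edgeR), that of miR-320b was -0.75 (SE 0.0891, adjusted p = 2.31e-08, edgeR) and that of miR-320c was -0.71 (SE 0.116, adjusted p = 8.02e-06, edgeR). Slopes called lower were found for 20.3% of all tested miRNAs. Of the 354, 5 had a lower slope than miR-320b, 6 than miR-320c and 21 than miR-320a. In DDR-Sen the slopes were -0.035 (SE 0.078), -0.16 (SE 0.0833) and -0.0051 (SE 0.112), none of them called by edgeR or by a DESeq2 Wald test, with 0 at an unadjusted p below 0.05, where 26.3% of all tested miRNAs were called in either direction.

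The difference of the slopes, PMD-Sen minus DDR-Sen, was -0.47 for miR-320a (95% interval -0.69 to -0.25, adjusted p = 0.00285, edgeR), -0.60 for miR-320b (-0.84 to -0.35, adjusted p = 0.00174) and -0.70 for miR-320c (-1.03 to -0.38, adjusted p = 0.00285). All 3 were called, against 7.06% of tested miRNAs called lower. All 3 calls were lost without replicate 1 of every condition (adjusted p 0.482 to 0.533, edgeR). With slopes per day in place of log2(day + 1), the calls of miR-320a (adjusted p = 0.0672, edgeR) and miR-320c (adjusted p = 0.0515, edgeR) were lost.

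**Figure D3:**
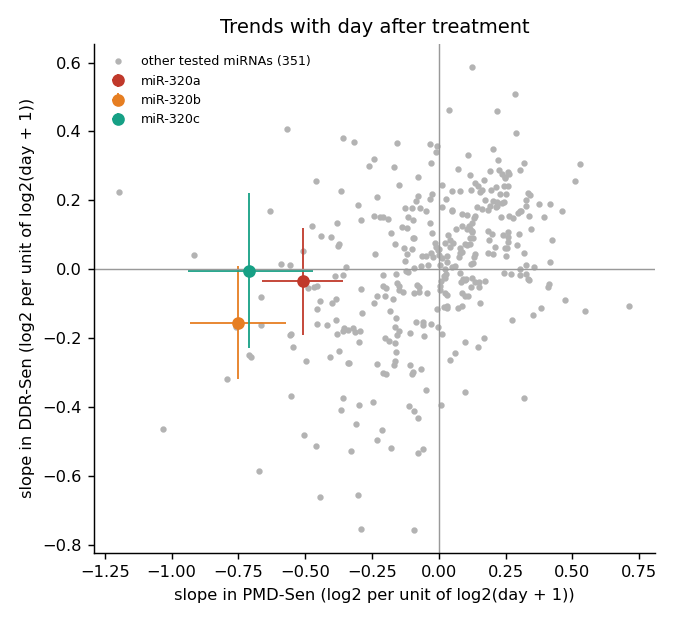
Slope of log2 level on log2(day + 1) in PMD-Sen (horizontal axis) and DDR-Sen (vertical axis) for miR-320a, miR-320b and miR-320c, with 95% intervals, and for the other 351 tested miRNAs (grey). The 3 members lie far to the left, at -0.51 to -0.75 in PMD-Sen, and their DDR-Sen intervals include 0.

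Library totals moved with these slopes. In PMD-Sen the totals rose with day, and within a replicate pair the library with the smaller total had the higher miR-320a CPM in 15 of the 18 conditions, 7 of 8 in PMD-Sen and 7 of 8 in DDR-Sen. The same held for miR-320b in 16 of 18 conditions and for miR-320c in 11 of 18. In every PMD-Sen pair the smaller library was replicate 2, so within these pairs library total and replicate number cannot be told apart. With the log2 library total added to the model, an alternative chosen after seeing the data, the PMD-Sen slope of miR-320a was -0.24 (adjusted p = 0.142, edgeR) and no longer called. The slopes of miR-320b (-0.46, adjusted p = 0.015, edgeR) and miR-320c (-0.56, adjusted p = 0.0336, edgeR) remained called. The differences of the slopes became -0.20, -0.30 and -0.54, and none was called (adjusted p 0.357 to 0.679, edgeR). In PMD-Sen a higher total and a later day go together, so their parts cannot be fully told apart.

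Markers of other cell types moved with day in PMD-Sen as well, at levels far under that of miR-320a. miR-122-5p, the hepatocyte marker, had 129 to 167 CPM on D0 and 8.81 to 15.8 CPM on D16, with a slope of -1.03 (SE 0.134, adjusted p = 1.73e-07, edgeR). It had 14.3 to 98.8 CPM in Ctrl, and in DDR-Sen its slope was -0.46 (SE 0.119, adjusted p = 0.00274, edgeR). The epithelial markers summed to 55.1 to 55.7 CPM on D0 and 26.1 to 41.8 CPM on D16, and miR-200c-3p among them had a slope of -0.70 (SE 0.137, adjusted p = 7.85e-05, edgeR). The endothelial miR-126-3p moved the other way, from 18.4 to 44.6 CPM on D0 to 121 to 133 CPM on D16, with a slope of 0.26. Its rise was not steady, with 75.4 to 128 CPM on D1 and 48.1 to 61.1 CPM on D3. On D16 its log2 difference from Ctrl was 1.56 (SE 0.41, adjusted p = 0.00994, edgeR). The haematopoietic markers reached 11.1 CPM on D0 and 3.27 CPM on D16, and the neuronal markers 0 and 3.81 CPM. The 4 fibroblast markers summed to 18400 to 18700 CPM in Ctrl and 16700 to 20500 CPM on D0. Their sum was 10400 to 13500 CPM on D8 and 13600 to 23700 CPM on D16. Their PMD-Sen slopes went both ways, at -0.39 for miR-214-3p, -0.11 for miR-145-5p, 0.012 for miR-199a-5p and 0.098 for miR-143-3p. The part of these markers in the fall of the members was not tested.

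**Figure D4:**
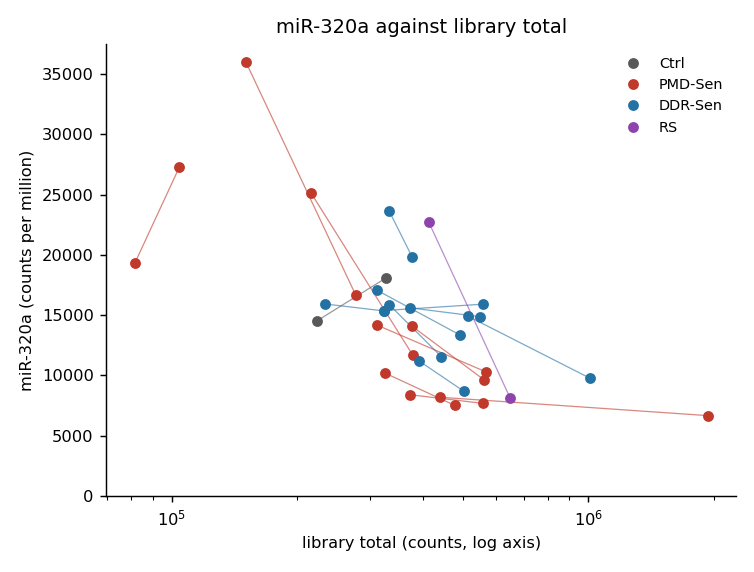
CPM of miR-320a (vertical axis) against the library total in counts (horizontal log axis) in the 36 libraries, coloured by group, with a line joining the 2 replicates of each condition. The line falls toward the larger library in 15 of 18 conditions, and the PMD-Sen libraries run from the smallest totals, 81668 and 104439 counts on D0, to the largest, 1933435 on D16.

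Within a library, the ratio of 2 members does not depend on the library total as a divisor. In Ctrl there were 1.35 and 0.965 counts of miR-320b per 100 of miR-320a. In PMD-Sen the ratio was 1.57 and 1.47 on D0, and 0.869 and 0.705 on D16, and the values of these days did not overlap. The level of miR-320b thus fell by more than that of miR-320a. Over the 16 PMD-Sen libraries the log2 ratio and log2(day + 1) had Pearson's r = -0.891 (permutation p = 2e-05, adjusted over 4 relations 8e-05) and Spearman's rho = -0.894 (permutation p = 1e-05, the smallest that 100000 permutations can give, adjusted 4e-05). Without the 2 D0 libraries r was -0.826, and without the D16 libraries it was -0.861.

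In DDR-Sen the same ratio went from 1.06 and 1.44 on D0 to 0.685 and 0.571 on D4 and to 1.21 and 0.801 on D16, with r = -0.398 over 16 libraries (permutation p = 0.127, adjusted 0.169) and rho = -0.497 (permutation p = 0.0534, adjusted 0.0712). Without the D0 libraries r was -0.0561 and without the D16 libraries it was -0.688, so that the DDR-Sen value depends on both ends of the series. The RS libraries, which lay far apart in miR-320a, had ratios of 1.12 and 1.10, between the 2 Ctrl values.

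For miR-320c the PMD-Sen ratio had r = -0.565 (permutation p = 0.0232, adjusted 0.0465) and rho = -0.692 (permutation p = 0.00398, adjusted 0.00796), and the DDR-Sen ratio r = 0.107 (permutation p = 0.692, adjusted 0.692) and rho = 0.0118 (permutation p = 0.974, adjusted 0.974). It was 0.292 and 0.404 per 100 on PMD-Sen D0, 0.193 and 0.190 on D6, and 0.254 and 0.262 on D16. Leaving out the D0 libraries gave r = -0.583 for the PMD-Sen ratio and r = -0.0422 for the DDR-Sen ratio. Leaving out the D16 libraries gave r = -0.618 and r = -0.32. Most values of the members included split reads, and the part of the splitting in these ratios was not tested.

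**Figure D5:**
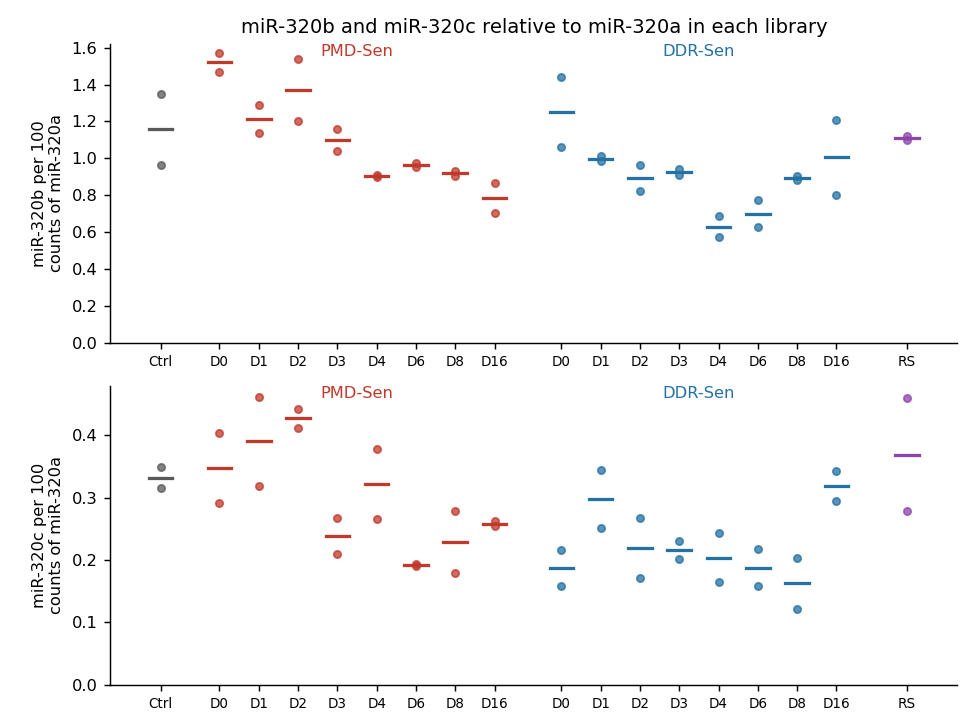
Counts of miR-320b (top) and miR-320c (bottom) per 100 counts of miR-320a on the vertical axes, in each library (points) and as the mean of 2 replicates (bars), by condition. The miR-320b ratio falls from a mean of 1.52 on PMD-Sen D0 to 0.787 on D16, while in DDR-Sen it is lowest on D4, at a mean of 0.628.

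The members resembled one another across libraries. Over the 36 libraries log2 CPM of miR-320a and miR-320b had r = 0.891, miR-320a and miR-320c 0.777, and miR-320b and miR-320c 0.845, values that share the library totals and the split reads. Outside the family, the 5 tested miRNAs whose means over the 18 conditions were most like miR-320a by Pearson's r of log2 CPM were miR-423-5p (0.936), miR-193a-5p (0.921), miR-1908-5p (0.847), miR-193b-5p (0.831) and miR-92b-3p (0.823). The 2 least like it were miR-379-5p (-0.866) and miR-411-5p (-0.865), both products of the imprinted miRNA cluster at 14q32. The PMD-Sen slope was -0.39 for miR-423-5p and 0.30 for miR-379-5p, signs that their choice by likeness to miR-320a largely fixed. These correlations describe conditions that share libraries with different totals, and carry no test.

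miR-484 and miR-877 are known as other miRNAs made without Drosha, miR-484 from a capped transcript and miR-877 as a mirtron, a short intron that folds into a hairpin after splicing. Of 20 names listed for such miRNAs and miR-451a, which is made without Dicer, 14 were in the table and 6 were tested. Against Ctrl, 2 of the 6 were called lower and none higher at PMD-Sen D16, 1 lower at DDR-Sen D16 and 2 lower in RS. The shares of all tested miRNAs called lower in these conditions were 7.78%, 11.7% and 12.2%. The median log2 difference of the 6 was -0.81, -0.23 and -0.49 in these conditions.

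miR-484 stood at 1659 and 1945 CPM in Ctrl, 1153 and 1303 CPM at PMD-Sen D16, 1133 and 1013 CPM at DDR-Sen D16 and 935 and 731 CPM in RS. It was below both Ctrl libraries in all 3, with log2 differences of -0.56 (SE 0.184, adjusted p = 0.0361, edgeR), -0.75 (SE 0.186, adjusted p = 0.00396, edgeR) and -1.12 (SE 0.187, adjusted p = 3.92e-05, edgeR). It was thus called in RS and at DDR-Sen D16, where no member was in the fit of all 36 libraries, and the difference between miR-484 and the members was not tested. miR-877-5p had 262 and 246 CPM in Ctrl, 98.5 and 115 CPM at PMD-Sen D16 and 117 and 78.9 CPM in RS, and its PMD-Sen slope was -0.51 (SE 0.0877, adjusted p = 1.43e-05, edgeR), near that of miR-320a. The other tested names of the list had slopes nearer 0, at -0.37 for miR-877-3p, -0.26 for miR-1229-3p and -0.15 for miR-484. For miR-1226-3p it was -0.091 and for miR-1228-3p 0.039. The median slope of the 6 was -0.205, and 2 of the 6 were called lower, against 20.3% of all tested miRNAs.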

How the data were processed

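Small RNA was sequenced on a MiSeq with the NEXTFLEX kit v3. The authors trimmed, mapped (GRCh38, miRBase; the release is not given in the sources used here) and counted the reads with exceRpt 4.6.2, and deposited expected counts per miRNA, not normalized. Reads that fit several miRNAs were split, so 1003 of 54288 values were not whole (tolerance 1e-06). Names of the members carry no arm, so the share of each arm was not computed.

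Libraries were grouped by their labels. Counts were rounded and tested with edgeR 4.0.16 in R 4.3.3 (TMM, filterByExpr on the conditions of each fit, quasi-likelihood test, Benjamini-Hochberg adjustment at 0.05). The fit of the slopes and that of D1 to D16 had a filter, TMM factors and spread of their own, and kept 354 and 346 miRNAs. The fit of all 36 libraries had 18 residual degrees of freedom and a biological coefficient of variation of 20.9%. Standard errors are the log2 difference over the root of F. The test recovered 98.9% of simulated log2 changes of 2 in PMD-Sen D16 against Ctrl, and 93.7% of simulated slopes of 0.5 in PMD-Sen. For the difference of the slopes it recovered 88.9%. False calls among unchanged miRNAs were 5 of 155, 3 of 156 and 6 of 156 in these. All simulated miRNAs had the same spread, and the members differed from Ctrl by less than 2. These shares are therefore not the power for the members. Log2 CPM used a prior count of 2. Ratios used 100000 permutations (SciPy 1.17.1). DESeq2 1.42.0 was an alternative.

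The members and lists were chosen with earlier results of these data known. All members found by the rule were named. Other names came from lists of miRNAs with the same seed, of Drosha- or Dicer-independent miRNAs and of cell type markers, and from the 5 tested miRNAs most like miR-320a and the 2 least like it. The mRNA data were not analysed here.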

Additional observations from a re-analysis of the deposited data

Results flagged for a closer look

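The slope on log2(day + 1) differed between PMD-Sen and DDR-Sen for 3 members, tested as the difference of the slopes in one model with edgeR's quasi-likelihood test. The difference, PMD-Sen minus DDR-Sen, was -0.47 for miR-320a, -0.60 for miR-320b and -0.70 for miR-320c, with adjusted p = 0.00285, 0.00174 and 0.00285. Library totals rose with day in PMD-Sen (rho = 0.728) and had a rho of 0.101 in DDR-Sen. With the log2 library total in the model the differences were -0.20, -0.30 and -0.54 and none was called. All 3 calls were also lost without replicate 1 of every condition (adjusted p = 0.482, 0.533 and 0.533, edgeR), and those of miR-320a and miR-320c with slopes per day (adjusted p = 0.0672 and 0.0515, edgeR). No group had enough libraries for a test of single outlying values.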

How the results depend on the processing

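With 2 replicates per condition, calls depended on single libraries. Member calls against Ctrl numbered 5, and 0 to 8 when 1 of the 36 libraries was left out, with 0 without either Ctrl replicate, 1 without either PMD-Sen D16 replicate, 3 without PMD-Sen D6 replicate 1, either PMD-Sen D8 replicate, or replicate 1 of DDR-Sen D1, D8 or D16, and 8 without RS replicate 1. A fit of only the 4 libraries of each comparison gave 12 (11 lower, 1 higher), the DESeq2 Wald test 7 and the study's thresholds (unadjusted p below 0.05 and a log2 difference beyond 1) 9. Between the series on the same day the 0 calls became 2 without the filter, 1 with a DESeq2 Wald test, 2 with only the 4 libraries and 6 with the study's thresholds, and 0 to 2 with a library left out. There, 1 of the 24 tests could not be run with only the 4 libraries, since a member failed the filter. Shares of all tested miRNAs under these other settings are not given here, so the counts only show how far the member calls moved.

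miR-320a at DDR-Sen D16 was called without the filter (-0.67) and with only the 4 libraries (-0.65), and over D1 to D16 it was called without the filter (-0.27). Its PMD-Sen slope became -0.24 with the library total, and the difference of its slopes -0.20 with the library total. With day itself that difference was -0.081 per day, another unit, and not called (adjusted p = 0.0672). Its DDR-Sen slope was 0.056 without the D16 libraries. With total counts miR-320b on D3 and miR-320c on D4 were higher in PMD-Sen (0.042 and 0.061). The cause was not tested.

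With single libraries or 1 replicate number left out, the values of miR-320a ranged from -1.29 to -0.97 at PMD-Sen D16, -1.01 to 0.34 in RS, 0.24 to 0.74 at PMD-Sen D0, 0.027 to 1.14 at D1, -0.48 to 0.62 at D2, -0.29 to 0.065 at DDR-Sen D0, -0.21 to 0.11 at D3 and at D6 and -0.25 to 0.068 at D8, all against Ctrl. They ranged from 0.43 to 1.55 for D1 and -0.23 to 0.87 for D2 between the series, -0.11 to 0.043 for the DDR-Sen slope and -0.51 to -0.42 for the difference of the slopes, which was called for none of the 3 members without replicate 1 of every condition. For miR-320b the ranges against Ctrl were -0.40 to 1.06 at PMD-Sen D2, -0.39 to 0.41 at DDR-Sen D0 and -1.04 to 0.32 in RS, those between the series -0.53 to 0.16 on D3 and -0.36 to 0.36 over D1 to D16, and the DDR-Sen slope -0.33 to 0.024. For miR-320c they were -0.083 to 0.91 at PMD-Sen D2 and -0.59 to 0.046 in RS against Ctrl, -0.19 to 0.55 for DDR-Sen D16 against D0, -0.74 to 0.19 on D3, -0.68 to 0.35 on D4 and -0.23 to 0.52 over D1 to D16 between the series, and -0.15 to 0.11 for the DDR-Sen slope.

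Correlations of replicate differences between pairs of conditions were -0.458 to 0.366 (median 0.0415), 53 of 153 of them over 0.1. In PMD-Sen, replicate 2 had the smaller total on every day and, except on D0, the higher miR-320a CPM. With a replicate block the calls were again 5 against Ctrl and 0 between the series, and miR-320a at PMD-Sen D16 was -1.13. DESeq2 gave no adjusted p for 10 tests, which were left out. Levels scaled by total counts differ from those printed by the TMM factor of the library.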
